A study of Mus musculus with 9 samples.

Results

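The genes described here encode proteins that carry a cell from the G2 phase through mitosis, and they were followed in 3 subsets of mouse monocytes made in culture. The list holds 40 symbols, such as Cdk1, Aurkb and Mki67. All 40 were found by symbol among the 46517 Ensembl genes of the deposited table, each on 1 row, and all 40 had enough counts to be tested among 14059 genes. RNA sequencing libraries came from 3 patrolling (pMo), 3 intermediate (intMo) and 3 conventional (cMo) monocyte samples, numbered 0, 1 and 2 in each subset. All groups share the same background, as primary cells of wild-type C57BL/6 mice kept in vitro with no further treatment named in the labels. Per the title, in vitro pMo derive from bone marrow grown with OP9-DLL1, a stromal feeder line that presents the Notch ligand Delta-like 1, and the gates or steps that separated the subsets are not given. Nor is it given whether the 3 libraries of each subset had separate cultures or mice behind them, so the p-values measure only the spread between these libraries.

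Entry into mitosis is driven by CDK1 bound to cyclin B, with help from the Polo-like and Aurora kinases. The kinetochore then ties chromosomes to spindle fibres, a checkpoint holds the cell until every chromosome is attached, and the anaphase promoting complex ends mitosis by marking cyclin B and securin for destruction. The transcripts of these proteins are made late in the cycle and are scarce in cells that have stopped dividing, which is why MKI67 is used as a proliferation marker. In mouse bone marrow, monocytes arise from dividing progenitors, and mature blood monocytes are mostly out of the cycle.

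The libraries held 18455116 to 29985684 estimated counts, and the lowest count of any member in any library was 38, for Ttk in pMo library 0. Levels are given as CPM, a gene's count relative to its library's total scaled by TMM, and levels of different genes are not compared because they were not divided by gene length. Libraries numbered 0 stood apart from their own subset. Across all genes, log2 CPM of library 0 correlated with those of the other two at 0.98 to 0.983 in pMo, 0.964 to 0.973 in intMo and 0.971 to 0.975 in cMo, against 0.992 to 0.996 between libraries 1 and 2. For the members the gap was wide in 2 subsets. In pMo all 40 members were lower in library 0 than in both other libraries, where 43.1% of all tested genes were, by a median of 2.19-fold. In intMo all 40 were again lower in library 0, where 40.9% of all genes were, by a median of 4.97-fold. In cMo, 24 members were higher in library 0 than in both others and 4 were lower. Each comparison is therefore given with all 9 libraries and again without the 3 libraries numbered 0. That choice rests in part on the members' own values, and it removes the libraries that widened their spread in pMo and intMo. Calls without libraries 0, from 2 libraries per subset, are thus a description and no separate support.

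**Figure D1:**
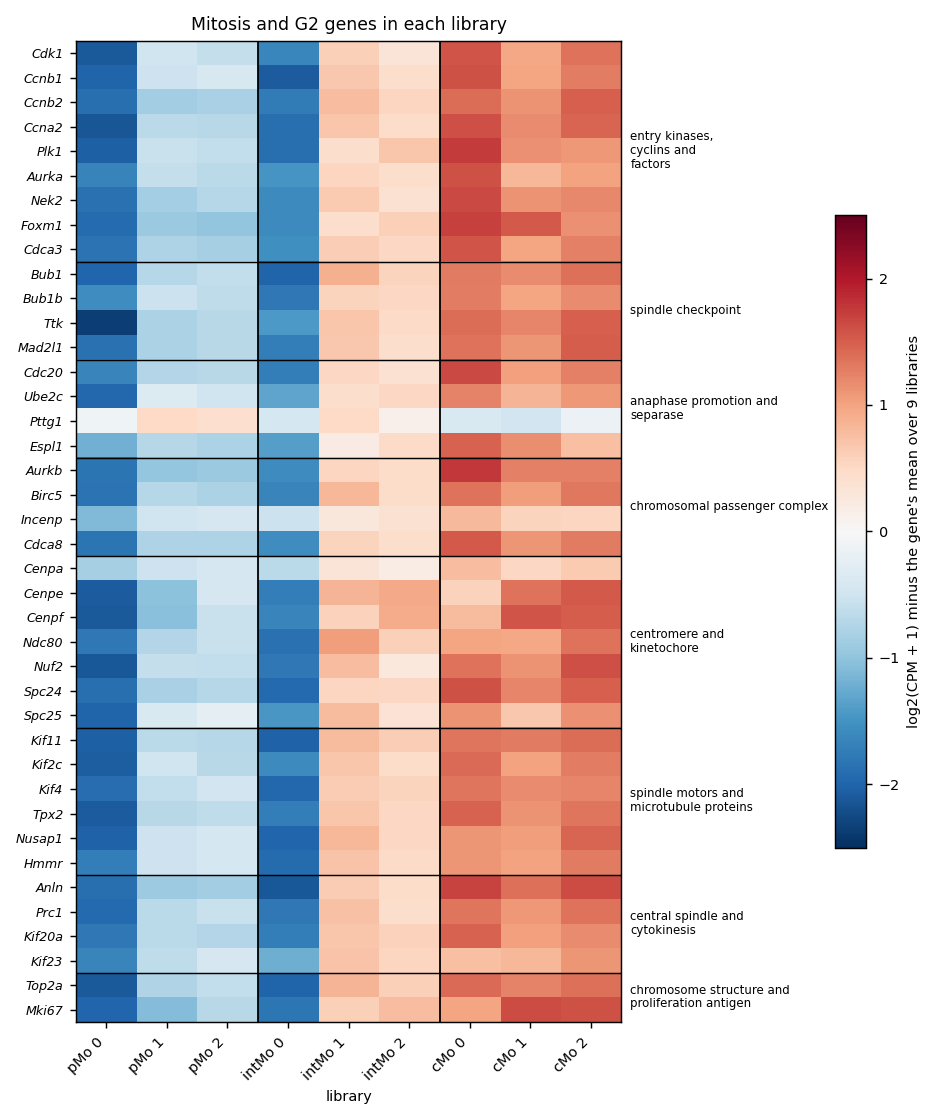
Level of the 40 members in each library, as log2(CPM + 1) minus the gene's mean over the 9 libraries (color scale), with genes in rows by role and libraries in columns by subset. Libraries of cMo are red, intMo 1 and 2 pale red, pMo 1 and 2 pale blue and both intMo 0 and pMo 0 dark blue, while Pttg1 departs from that order.

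Patrolling monocytes had much lower levels of this program than conventional monocytes. Of 40 members, 38 fell in pMo relative to cMo, none rose and 2 were not called, at an adjusted p under 0.05 by edgeR's quasi-likelihood test over all genes. Among all tested genes 15.9% were called lower and 17.2% higher, and 33.1% were called in either direction. A test for any difference among the 3 subsets called 29 members, beside 33% of all genes. The median change of the members was a log2 of -2.33, or 5.02-fold lower, beside 0.03 over all genes. In 39 members all 3 pMo libraries lay below all 3 cMo libraries, where 23.5% of all genes did. The members not called were Spc25, a kinetochore subunit (log2 -1.79 ± 0.63, SE, adjusted p = 0.0551), and Pttg1, securin (log2 0.65 ± 0.25, adjusted p = 0.0789). None was called higher by DESeq2 either, and Pttg1 was the 1 member with a positive change at an unadjusted p under 0.05. In these bulk samples fewer dividing cells and less of each transcript per dividing cell cannot be told apart. Calls of 20 members held on leaving out each of the 9 libraries in turn, and 18 were lost in some removal. Without pMo library 0, with the other 8 libraries kept, the count was 20, beside 1571 of all genes called lower. With no filter on low counts it was 24, beside 2006 of all genes. Leaving out number 1 or number 2 of all subsets, so that library 0 is 1 of 2 in each, edgeR called none. It called 680 of 14080 and 430 of 14112 genes lower in these fits. At an unadjusted p under 0.05 there were then 38 and 35 members, beside 33.4% and 28.8% of all genes, and DESeq2 called 39 and 38 lower, beside 12% and 9.45% of all genes.

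The members were listed as mitosis and G2 genes, so motif shares describe the list and not its changes between subsets. Promoters of the members were read for short motifs of late cell cycle genes. Such promoters are known for the cell cycle genes homology region (CHR), the hexamer TTTGAA that binds the MuvB core of the DREAM and B-Myb complexes, and for CCAAT boxes, which bind the factor NF-Y. RefSeq windows of GRCm38.p6, with 250 bases before and 50 after the annotated start, were matched by symbol for 33 of the 40 members. The windows of 6 are shown as the 2 most counted members with a window in each of 3 role groups, mitotic entry, anaphase and the chromosomal passenger complex. They are Ccnb1 (chr13:100786437-100786736, minus strand), Ccnb2 (chr9:70421505-70421804, minus strand), Ube2c (chr2:164769679-164769978, plus strand), Cdc20 (chr4:118437294-118437593, minus strand), Cdca8 (chr4:124936868-124937167, minus strand) and Birc5 (chr11:117848987-117849286, plus strand). Capitals mark TTTGAA, the related TTCGAA and CCAAT on either strand, and matches may overlap.
Ccnb1: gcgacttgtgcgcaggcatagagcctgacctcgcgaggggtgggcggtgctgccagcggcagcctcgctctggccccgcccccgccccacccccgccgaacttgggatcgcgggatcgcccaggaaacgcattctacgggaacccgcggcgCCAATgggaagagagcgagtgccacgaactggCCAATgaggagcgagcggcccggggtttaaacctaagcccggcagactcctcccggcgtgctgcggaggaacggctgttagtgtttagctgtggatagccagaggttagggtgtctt
Ccnb2: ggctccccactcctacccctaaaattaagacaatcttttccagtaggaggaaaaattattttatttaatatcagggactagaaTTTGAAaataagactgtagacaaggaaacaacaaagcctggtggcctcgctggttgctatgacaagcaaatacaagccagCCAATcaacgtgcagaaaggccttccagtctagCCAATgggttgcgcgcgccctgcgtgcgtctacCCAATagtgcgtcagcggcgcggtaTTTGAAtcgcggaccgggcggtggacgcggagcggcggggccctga
Ube2c: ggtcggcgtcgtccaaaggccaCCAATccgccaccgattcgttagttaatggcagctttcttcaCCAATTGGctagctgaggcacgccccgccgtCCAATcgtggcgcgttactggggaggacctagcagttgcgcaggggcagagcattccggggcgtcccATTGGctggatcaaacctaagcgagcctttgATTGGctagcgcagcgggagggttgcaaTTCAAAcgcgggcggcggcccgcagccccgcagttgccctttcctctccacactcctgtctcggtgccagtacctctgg
Cdc20: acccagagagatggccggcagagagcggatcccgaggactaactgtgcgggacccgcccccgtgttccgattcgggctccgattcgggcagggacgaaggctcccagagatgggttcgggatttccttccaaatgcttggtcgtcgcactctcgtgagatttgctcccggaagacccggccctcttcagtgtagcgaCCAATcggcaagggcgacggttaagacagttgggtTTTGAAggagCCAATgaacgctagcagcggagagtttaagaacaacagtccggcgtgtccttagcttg
Cdca8: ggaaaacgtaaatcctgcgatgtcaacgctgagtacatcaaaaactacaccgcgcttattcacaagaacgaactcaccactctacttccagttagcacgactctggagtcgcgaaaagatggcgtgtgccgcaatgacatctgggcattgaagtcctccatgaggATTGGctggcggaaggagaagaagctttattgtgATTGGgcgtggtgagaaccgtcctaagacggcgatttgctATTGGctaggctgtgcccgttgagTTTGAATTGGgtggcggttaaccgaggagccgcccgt
Birc5: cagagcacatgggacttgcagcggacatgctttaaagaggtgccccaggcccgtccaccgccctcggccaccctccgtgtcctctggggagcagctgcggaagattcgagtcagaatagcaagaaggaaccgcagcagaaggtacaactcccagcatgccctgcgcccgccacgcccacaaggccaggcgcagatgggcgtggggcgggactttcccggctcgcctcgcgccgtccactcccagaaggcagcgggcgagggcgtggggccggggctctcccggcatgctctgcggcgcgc

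The hexamer TTTGAA was found in 24 of the 33 windows (72.7%), against 12.5% of the 13315 windows of tested genes and 17.9% of all 32851 windows. TTTGAA or TTCGAA lay within 50 bases of the start in 23 of 33 (69.7%), against 3.71% of the windows of tested genes. CCAAT was present in 25 of 33 (75.8%), against 37.7%, and at least 2 copies in 18 (54.5%), against 13.8%. Both kinds of motif stood in 22 of 33 windows (66.7%), against 5.95%. Among those shown, Ube2c had 6 CCAAT matches and 1 hexamer and Ccnb2 had 3 and 2. Ccnb1 had 2 CCAAT matches and neither TTTGAA nor TTCGAA. Other variants of the CHR were not searched. No match was found in 5 windows, those of Birc5, Mad2l1, Nuf2 and Nusap1, which were called lower, and of Pttg1, which was not. A match describes letters and was not tested as a site. Genes with several annotated starts count once for each start among all windows and by their first listed start among the members.

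**Figure D2:**
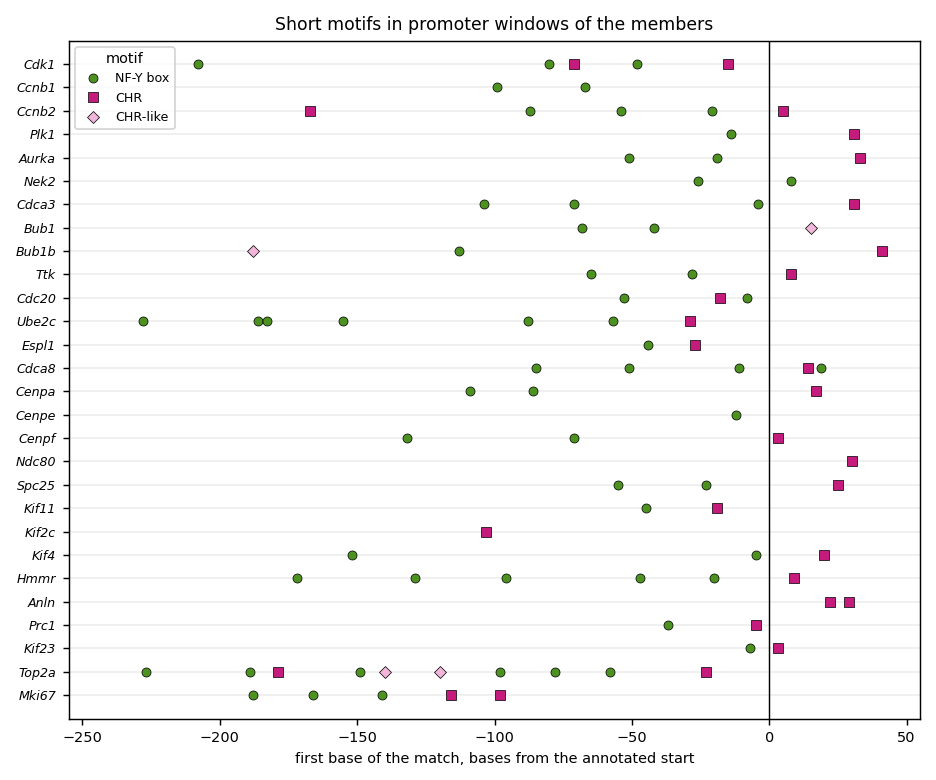
Position of motif matches in the promoter windows of members with at least 1 match, in bases from the annotated start, on either strand (circle, CCAAT box bound by NF-Y; square, CHR; diamond, the related hexamer). Hexamers gather near the start, with 24 of 33 matches within 50 bases of it, and CCAAT boxes lie mostly before it, at a median of -67.5.

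Kinases, cyclins and factors of mitotic entry fell in pMo relative to cMo in 9 of 9 cases, with a median 5.35-fold lower level. Ccnb1 (ENSMUSG00000041431.15, chromosome 13, 100778650 to 100786570 in GRCm38), the cyclin that activates CDK1 at mitotic entry, had 15.2, 44.4 and 48.04 CPM in pMo libraries 0, 1 and 2, against 14.4, 103 and 87.05 CPM in intMo and 195, 127 and 157 CPM in cMo. Levels in cMo were above those of all other libraries, intMo 1 and 2 came next, and intMo 0 was as low as pMo 0. The change of pMo against cMo was 4.44-fold lower (log2 -2.15 ± 0.66, SE, adjusted p = 0.0327). Ccna2 (ENSMUSG00000027715.8, chromosome 3, 36564865 to 36572150), the cyclin of S and G2 phase, had 17.9, 51.05 and 50.1 CPM in pMo libraries 0, 1 and 2, against 21.5, 133 and 113 CPM in intMo and 254, 189 and 227 CPM in cMo, and was 5.62-fold lower in pMo than in cMo (log2 -2.49 ± 0.62, SE, adjusted p = 0.0144). The same order of libraries held, with no overlap between pMo and cMo. Foxm1, the transcription factor of G2 and mitotic genes, had 10.1, 21.5 and 20.6 CPM in pMo libraries 0, 1 and 2, against 13.03, 56.7 and 63.1 CPM in intMo and 139, 122 and 92.8 CPM in cMo. Its change was the largest of the group, 6.78-fold lower (log2 -2.76 ± 0.54, SE, adjusted p = 0.00484). Log2 changes of the other members of the group were between -2.52 and -2.13. These are Cdk1, the kinase itself, Ccnb2, a second cyclin B, Plk1 and Aurka, kinases of centrosome and spindle maturation, Nek2, a centrosome kinase, and Cdca3, linked in frog egg extracts to removal of the inhibitor WEE1.

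Genes of the spindle checkpoint fell in 4 of 4 cases (median 5.21-fold lower). Bub1b, which encodes the checkpoint protein BUBR1, had 33.9, 68.8 and 64.6 CPM in pMo libraries 0, 1 and 2, against 28.4, 148 and 144 CPM in intMo and 245, 201 and 229 CPM in cMo. All cMo libraries exceeded all others, and intMo 0 was the lowest of the 9. Its mean was 55.7 ± 19.1 CPM in pMo and 225 ± 22.4 CPM in cMo (SD, n = 3 each), a 4.03-fold lower level (log2 -2.01 ± 0.54, SE, adjusted p = 0.019). Mad2l1, the inhibitor of anaphase that the checkpoint releases, had 9.24, 20.4 and 21.9 CPM in pMo libraries 0, 1 and 2, against 10.2, 58.4 and 49.1 CPM in intMo and 93.7, 78.3 and 104 CPM in cMo, and fell 5.36-fold in pMo (log2 -2.42 ± 0.57, SE, adjusted p = 0.0111). Ttk, the kinase MPS1 that starts the checkpoint, was the member with the fewest counts, at 1.56, 6.55 and 7.17 CPM in pMo libraries 0, 1 and 2, against 3.86, 20.3 and 17.2 CPM in intMo and 33.3, 29.6 and 36.1 CPM in cMo. With 6.47-fold it had the largest change of the group (log2 -2.69 ± 0.65, SE, adjusted p = 0.0124), and Bub1, a kinase at unattached kinetochores, changed by a log2 of -2.34 ± 0.66 (adjusted p = 0.0237).

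Of the genes that bring about anaphase, 3 of 4 fell. Cdc20, the activator of the anaphase promoting complex, had 14.9, 29.3 and 30.03 CPM in pMo libraries 0, 1 and 2, against 14.05, 70.5 and 64.4 CPM in intMo and 157, 101 and 119 CPM in cMo. Levels were 5.07-fold lower in pMo than in cMo with no overlap (log2 -2.34 ± 0.54, SE, adjusted p = 0.0101). Ube2c, the ubiquitin-conjugating enzyme of that complex, had 13.5, 43.9 and 39.2 CPM in pMo libraries 0, 1 and 2, against 21.7, 76.6 and 80.5 CPM in intMo and 133, 102 and 119.8 CPM in cMo, a 3.67-fold lower level in pMo (log2 -1.87 ± 0.53, SE, adjusted p = 0.024). Espl1, separase, which cuts cohesin, changed by a log2 of -2.10 ± 0.43 (adjusted p = 0.0058). Pttg1 (ENSMUSG00000020415.15, chromosome 11, 43420250 to 43426251 in GRCm38), securin, the inhibitor of separase, did not follow the other members. It had 23.7, 36.3 and 34.5 CPM in pMo libraries 0, 1 and 2, against 18.7, 36.2 and 28.01 CPM in intMo and 19.3, 18.04 and 23.04 CPM in cMo. All 3 pMo libraries lay above all 3 cMo libraries, where 26% of all genes did, and the intMo libraries overlapped both. Its means were 31.5 ± 6.81 CPM in pMo, 27.6 ± 8.801 CPM in intMo and 20.1 ± 2.61 CPM in cMo (SD, n = 3 each). The difference between pMo and cMo was not called with all 9 libraries and was called without libraries 0 (log2 0.79 ± 0.17, SE, adjusted p = 0.00676).

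**Figure D3:**
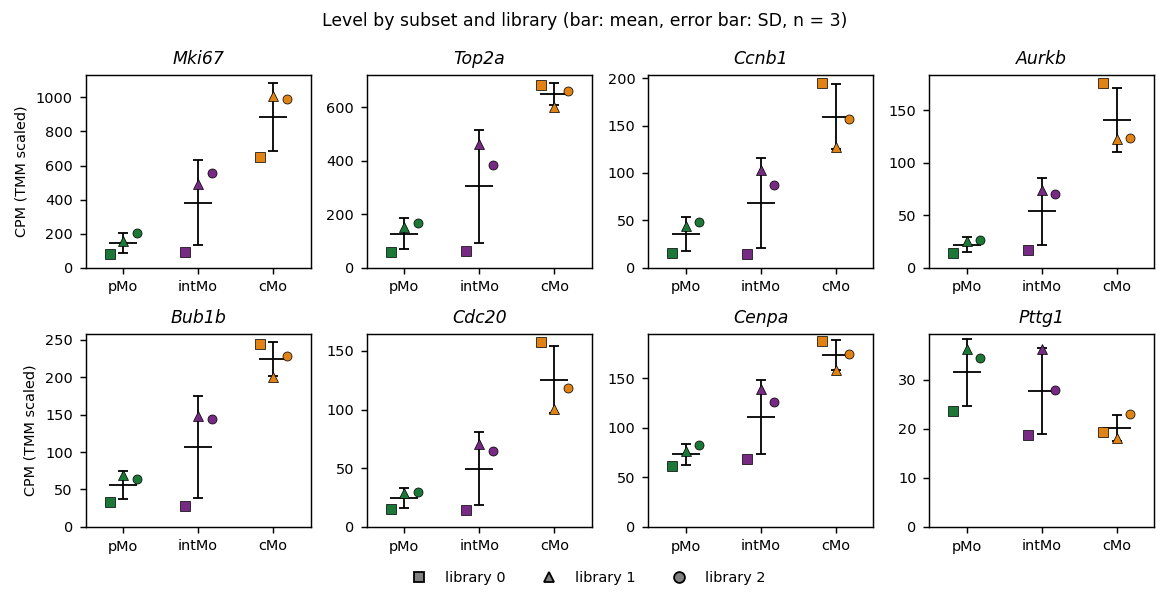
CPM of 8 members in each of the 9 libraries by subset (symbols mark libraries 0, 1 and 2, the horizontal bar the mean and the error bar the SD, n = 3; each axis starts at 0). In all panels but that of Pttg1 the cMo libraries are highest, the pMo libraries low, and the intMo subset is split between library 0, near pMo, and libraries 1 and 2.

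Members of the chromosomal passenger complex, which corrects faulty attachments and then guides cytokinesis, fell in 4 of 4 cases (median 5.18-fold lower). Aurkb, its kinase, had 13.6, 25.6 and 26.3 CPM in pMo libraries 0, 1 and 2, against 16.3, 74.2 and 69.6 CPM in intMo and 176, 122 and 123 CPM in cMo, and was 6.44-fold lower in pMo (log2 -2.69 ± 0.52, SE, adjusted p = 0.00463). Incenp, the scaffold of the complex, had 69.6, 108 and 113 CPM in pMo libraries 0, 1 and 2, against 104, 184 and 198 CPM in intMo and 266, 222 and 221 CPM in cMo. For both genes every cMo library was above every other library. The Incenp change was smaller, at 2.45-fold (log2 -1.29 ± 0.26, SE, adjusted p = 0.0056). Birc5, survivin, and Cdca8, borealin, changed by a log2 of -2.33 ± 0.56 (adjusted p = 0.0127) and -2.42 ± 0.52 (adjusted p = 0.00735).

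Of 7 centromere and kinetochore genes 6 fell and Spc25 was not called. Cenpa, the histone H3 variant that marks the centromere, had 61.5, 76.4 and 82.1 CPM in pMo libraries 0, 1 and 2, against 68.7, 139 and 126 CPM in intMo and 188, 158 and 174 CPM in cMo. Its change of 2.36-fold was the smallest among the members called (log2 -1.24 ± 0.24, SE, adjusted p = 0.00472), with cMo above all other libraries. Cenpe, a motor at the kinetochore, had 10.6, 23.1 and 35.8 CPM in pMo libraries 0, 1 and 2, against 13.8, 88.3 and 93.9 CPM in intMo and 72.5, 126 and 141 CPM in cMo, and Cenpe levels in intMo 1 and 2 lay above that of cMo library 0. Relative to cMo the pMo level was 4.88-fold lower (log2 -2.29 ± 0.68, SE, adjusted p = 0.029). Spc24, a subunit of the NDC80 complex that grips microtubules, had 4.11, 9.73 and 10.4 CPM in pMo libraries 0, 1 and 2, against 3.86, 26.1 and 25.7 CPM in intMo and 55.4, 43.03 and 52.1 CPM in cMo, a 6.201-fold lower level (log2 -2.63 ± 0.63, SE, adjusted p = 0.0117). The log2 changes of its partners Ndc80, Nuf2 and Spc25 were -2.14 ± 0.65, -2.41 ± 0.63 and -1.79 ± 0.63, and Cenpf, a large protein of the outer kinetochore, changed by -2.51 ± 0.64.

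Spindle motors and microtubule proteins fell in 6 of 6 cases (median 4.66-fold lower). Kif11, the motor that separates the spindle poles, had 18.2, 48.2 and 47.1 CPM in pMo libraries 0, 1 and 2, against 18.4, 136 and 119 CPM in intMo and 198, 193 and 207 CPM in cMo, and was 5.27-fold lower in pMo (log2 -2.40 ± 0.64, SE, adjusted p = 0.0192). Tpx2, an activator of Aurora A on the spindle, had 15.9, 42.6 and 44.4 CPM in pMo libraries 0, 1 and 2, against 20.4, 113 and 100.4 CPM in intMo and 196, 153 and 179 CPM in cMo, and was 5.13-fold lower (log2 -2.36 ± 0.59, SE, adjusted p = 0.0149). In both genes pMo 0 and intMo 0 were the lowest libraries and the cMo libraries the highest. Kif2c and Kif4, a microtubule depolymerase and a chromosome motor, and Nusap1 and Hmmr, spindle-associated proteins, had log2 changes from -2.25 to -1.98.

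The 4 genes of the central spindle and cytokinesis also fell (median 4.75-fold lower). Anln, anillin, the scaffold of the contractile ring, had 8.26, 17.2 and 17.7 CPM in pMo libraries 0, 1 and 2, against 6.81, 52.2 and 45.7 CPM in intMo and 108, 87.8 and 105 CPM in cMo. Its 6.97-fold lower level in pMo was the largest change among the 40 members (log2 -2.80 ± 0.63, SE, adjusted p = 0.00914). Kif20a, a motor of the central spindle, had 19.2, 42.6 and 40.8 CPM in pMo libraries 0, 1 and 2, against 19.9, 111 and 103 CPM in intMo and 193, 142 and 158 CPM in cMo, a 4.798-fold lower level (log2 -2.26 ± 0.57, SE, adjusted p = 0.0145). Kif23, the motor subunit of centralspindlin, had 24.2, 49.8 and 57.4 CPM in pMo libraries 0, 1 and 2, against 32.5, 128 and 113 CPM in intMo and 130.4, 138 and 168 CPM in cMo, a 3.32-fold lower level (log2 -1.73 ± 0.48, SE, adjusted p = 0.0221). Every pMo library was below every cMo library in these genes, and the Kif23 level of intMo library 1 was just below that of cMo library 0. Prc1, the bundler of central spindle fibres, changed by a log2 of -2.23 ± 0.59 (adjusted p = 0.0186).

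Top2a and Mki67, 2 genes of mitotic chromosomes, fell as well. Mki67, which encodes the proliferation antigen Ki-67 that coats mitotic chromosomes, had 81.4, 153 and 202 CPM in pMo libraries 0, 1 and 2, against 93.1, 492 and 555 CPM in intMo and 652, 1011 and 988 CPM in cMo. Levels were 6.08-fold lower in pMo than in cMo (log2 -2.60 ± 0.60, SE, adjusted p = 0.0104). Top2a, the topoisomerase that untangles sister chromatids, had 58.99, 152 and 166 CPM in pMo libraries 0, 1 and 2, against 63.5, 463 and 385 CPM in intMo and 682, 602 and 662 CPM in cMo, a 5.15-fold lower level (log2 -2.37 ± 0.64, SE, adjusted p = 0.0207). For both, intMo 1 and 2 stood between the other subsets and intMo 0 stood with pMo.

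Intermediate monocytes were compared with conventional monocytes to ask whether the program was already lower there. In 35 of 40 members all 3 intMo libraries lay below all 3 cMo libraries, where 20.1% of all genes did and 21.2% separated upward, and the members with overlap were Pttg1, Cenpe, Cenpf, Ndc80 and Spc25. The median log2 change was -1.13, or 2.19-fold lower, beside -0.01 over all genes. Even so edgeR called no member, while it called 10.4% of all genes lower and 14% higher, or 24.4% in all. At an unadjusted p under 0.05 there were 11 members (27.5%), fewer in share than the 37.6% of all genes. DESeq2 called 10 members lower, beside 14.3% of all genes. The spread within intMo was large for these genes. The SD of log2 CPM over the intMo libraries had a median of 1.35 for the members, against 0.21 over all genes. Without libraries 0 the picture was narrower: 33 members fell and 1, Pttg1, rose, with 11.9% of all genes called lower and 15.8% called higher. The median change was then a log2 of -0.59, or 1.51-fold lower.

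In that comparison without libraries 0, Anln had a log2 change of -0.97 ± 0.13 (SE, adjusted p = 0.000874), Mki67 of -0.93 ± 0.15 (adjusted p = 0.00269) and Aurkb of -0.77 ± 0.10 (adjusted p = 0.00092). The members not called were Incenp, Cenpa, Cenpe, Ndc80, Spc25 and Kif23, with log2 changes from -0.54 to -0.21. Pttg1 rose by a log2 of 0.65 ± 0.17 (adjusted p = 0.0221), at 36.2 and 28.01 CPM in intMo 1 and 2 against 18.04 and 23.04 CPM in cMo 1 and 2. Only 2 libraries per subset remain in this fit. Leaving out number 1 or number 2 of all subsets instead, edgeR called 0 members. It then called 183 of 14080 and 160 of 14112 genes lower.

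Patrolling monocytes were then compared with intermediate monocytes. With all 9 libraries no member was called by edgeR or DESeq2, while edgeR called 1.69% of all genes lower and 3.29% higher, or 4.99% in all. At an unadjusted p under 0.05 there were 13 members (32.5%), beside 18.6% of all genes. The median log2 change was -1.16, or 2.24-fold lower, beside -0.02 over all genes. The subsets overlapped in all 40 members, where 12.9% of all genes separated downward and 14.8% upward. In each of the 40, intMo 0 lay below both pMo 1 and pMo 2, as it did for 46.4% of all genes. Same-numbered libraries of these 2 subsets deviated together, with correlations of 0.71, 0.465 and 0.385 across genes for numbers 0, 1 and 2. The number as a block in the fit of all 9 libraries called no member (lowest adjusted p = 0.0811), and neither did a fit of these 6 libraries with no block. With both together, a fit added after the data were seen, 19 members fell, beside 9.99% of all genes. The median log2 change was -0.98. The pairing in that fit was read from these same libraries and is not in the labels. Among those 19 were Ttk (log2 -1.42 ± 0.17, SE, adjusted p = 0.000531), Ube2c (log2 -0.86 ± 0.11, adjusted p = 0.000803) and Cdk1 (log2 -0.90 ± 0.14, adjusted p = 0.00201).

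Without libraries 0, 39 of 40 members fell in pMo relative to intMo, where 9.67% of all genes were called lower and 7.43% higher, and Pttg1 was not called (log2 0.14 ± 0.16, SE, adjusted p = 0.651). The median was a log2 of -1.29, or 2.44-fold lower. Cenpe had the largest change (-1.63 ± 0.19, adjusted p = 0.000918), followed by Cenpf (-1.59 ± 0.19) and Mki67 (-1.56 ± 0.15), and the smallest among those called were in Cenpa (-0.74 ± 0.11) and Incenp (-0.80 ± 0.11). Leaving out intMo library 0 alone gave 30 members called lower, beside 433 of all genes. Leaving out number 1 or number 2 of all subsets instead, edgeR called 0 members. It then called 0 of 14080 and 1 of 14112 genes lower. The fit without libraries 0 holds only 2 libraries per subset. In libraries 1 and 2 the subsets were graded for 37 members, with both pMo libraries below both intMo libraries and these below both cMo libraries, an order that 11.6% of all genes had. For pMo against cMo the fit without libraries 0 called 39 members lower and Pttg1 higher, with 18% of all genes called lower and 19.7% called higher, and a median log2 change of -1.90, or 3.74-fold lower.

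**Figure D4:**
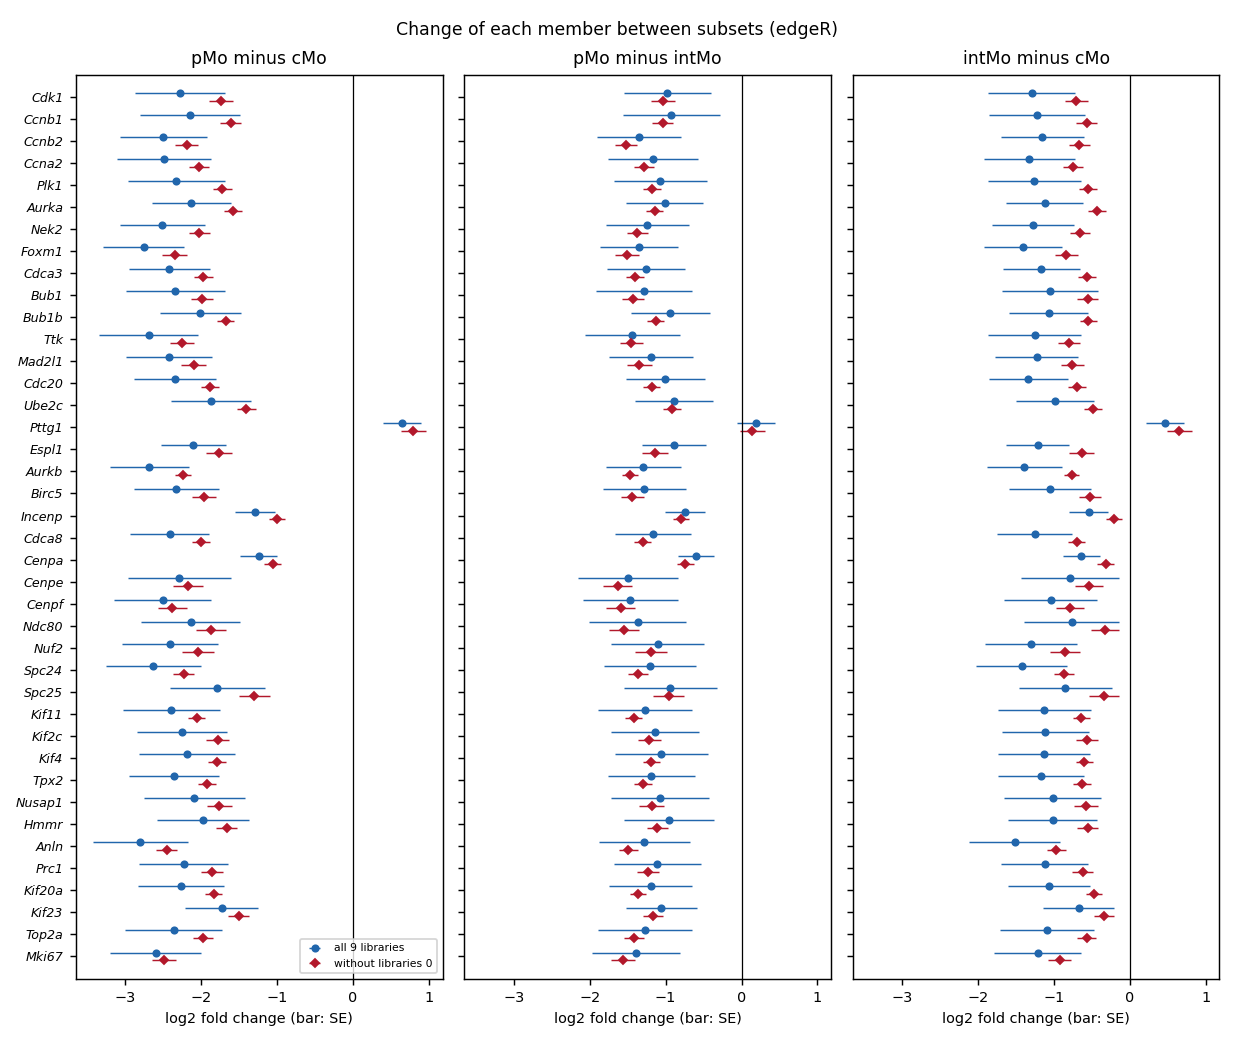
Log2 fold change of each member in the 3 comparisons, with all 9 libraries (circles) and without libraries 0 (diamonds), and bars for the SE. With all 9 libraries the medians are -2.33, -1.16 and -1.13 from left to right, the bars are much shorter without libraries 0, and Pttg1 lies to the right of zero throughout.

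The members varied as a block over the 9 libraries. Pearson correlations of log2 CPM between members had a median of 0.983 over 780 pairs, and 739 pairs were above 0.9. These values describe libraries that share subsets and depth and carry no test. Each member but Pttg1 correlated at 0.959 or more with the mean of the others, the lowest being Cenpe, Espl1 and Cenpf, and Pttg1 correlated at -0.14. A median of 0.911 was found between members and genes of DNA replication. Among the members called, the size of change differed, with Cenpa and Incenp lowest at 2.36-fold and 2.45-fold and Anln highest at 6.97-fold in pMo against cMo. The 40 genes, all annotated as protein coding, lie on 16 chromosomes. Other annotated genes overlap 8 members on the same strand and 15 on the opposite strand, and 3 members have a pseudogene named after them in the table, so some of their counts are uncertain.

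Mitotic genes outside the 40 were lower as well. Of 55 further mitotic genes, 53 fell in pMo relative to cMo, Zw10 and Hjurp were not called, and the median was 4.76-fold lower. Among all genes 15.9% were called lower. Pbk, a mitotic kinase, changed by a log2 of -2.99 ± 0.63 (SE, adjusted p = 0.00697) and Wee1, the kinase that restrains CDK1, by -2.89 ± 0.39 (adjusted p = 0.00082). Wee1 had 2.59, 2.98 and 3.15 CPM in pMo libraries 0, 1 and 2, against 3.06, 8.49 and 8.32 CPM in intMo and 29.3, 18.7 and 16.7 CPM in cMo. In intMo against cMo 9 of the 55 fell with all 9 libraries and 45 without libraries 0, beside 10.4% and 11.9% of all genes. In pMo against intMo 0 of the 55 were called with all 9 libraries, beside 4.99% of all genes. An unadjusted p under 0.05 was found for 17 of the 55 (30.9%), beside 18.6% of all genes. Without libraries 0, 51 of the 55 were called lower, beside 9.67% of all genes.

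DNA replication and S phase genes, the nearest neighbours in the cycle, were lower too. All 39 fell in pMo against cMo (median 5.23-fold lower), beside 15.9% of all genes. In intMo against cMo with all 9 libraries 31 of 39 fell, beside 10.4% of all genes, where no member of the mitosis list was called. Without libraries 0 the counts in intMo against cMo were 34 of 39 and 33 of 40, beside 11.9% of all genes. With all 9 libraries the median log2 change of S phase genes was -1.35 in intMo against cMo and -0.89 in pMo against intMo. For the mitosis genes these were -1.13 and -1.16. Without libraries 0 they were -0.81 and -1.21 for S phase genes and -0.59 and -1.29 for mitosis genes. In pMo against intMo with all 9 libraries, 26 of 39 S phase and 13 of 40 mitosis genes had an unadjusted p under 0.05, beside 18.6% of all genes. The difference between the lists was not tested. Summed over the list, S phase genes had 866, 909 and 884 CPM in pMo libraries 0, 1 and 2, against 871, 2027 and 1914 CPM in intMo and 5379, 3319 and 3609 CPM in cMo. The 40 mitosis genes summed to 716, 1531 and 1632 CPM in pMo, 823, 3908 and 3648 CPM in intMo and 6170, 5571 and 6140 CPM in cMo. In these sums pMo libraries were alike in S phase genes and unlike in mitosis genes, and cMo library 0 stood out only in S phase genes. Gene by gene, 24 mitosis genes were higher in cMo library 0 than in both other cMo libraries and 4 were lower. Mki67, the most counted of them, ran against most, with 652 CPM in cMo library 0 against 1011 and 988 CPM in cMo 1 and 2. Cdc6, which loads the replicative helicase, changed by a log2 of -3.70 ± 0.42 and Uhrf1, which keeps DNA methylation through replication, by -3.54 ± 0.55 (SE, adjusted p = 0.000336 and 0.00164, pMo against cMo).

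Upstream regulators were mixed. Of 15 G1 and G1/S genes 9 fell and 1 rose in pMo against cMo, beside 15.9% and 17.2% of all genes. Ccne2 and Ccne1, the cyclins that start replication, changed by a log2 of -3.20 ± 0.53 (adjusted p = 0.00229) and -3.17 ± 0.50 (adjusted p = 0.00182). The gene that rose was Ccnd2, a D-type cyclin of early G1, named after its values were seen (log2 1.58 ± 0.47, adjusted p = 0.0287). Of 12 tested CDK inhibitor, pocket protein and cycle exit genes, 7 rose and 3 fell, beside the same 17.2% and 15.9% of all genes. Another 2 listed genes had too few counts. Btg2, an antiproliferative factor, had 278, 289.7 and 297 CPM in pMo libraries 0, 1 and 2, against 327, 268 and 257 CPM in intMo and 71.8, 120.1 and 122 CPM in cMo, and rose by a log2 of 1.46 ± 0.20 (adjusted p = 0.000935). Cdkn2c, an inhibitor of CDK4 and CDK6, changed the other way (log2 -2.07 ± 0.42, adjusted p = 0.0058). The others that rose, named after their values were seen, were Btg1, Cdkn1a, Cdkn1b, Rb1, Rbl2 and Ccng1, and the others that fell were Cdkn2d and Rbl1.

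Of 9 genes for the MuvB core, which binds the CHR element, and its partners, 5 fell in pMo against cMo and 4 were not called. Of all genes 15.9% were called lower. The median log2 change of the 9 was -0.69 in pMo against cMo. Mybl2, which encodes B-Myb, had 5.505, 5.29 and 6.03 CPM in pMo libraries 0, 1 and 2, against 5.95, 18.7 and 21.1 CPM in intMo and 112, 49.6 and 39.99 CPM in cMo, a log2 change of -3.58 ± 0.53 (adjusted p = 0.00131). Tfdp1, the partner of E2F factors, changed by -1.86 ± 0.26 (adjusted p = 0.000913). Among 13 subunits and partners of the anaphase promoting complex, 6 fell, beside the same 15.9%, and 7 were not called. Their median log2 change was -0.47. The 2 named by size of change, Ube2s, an enzyme that extends ubiquitin chains, and Anapc5, a scaffold subunit, changed by -1.46 ± 0.24 and -1.20 ± 0.21 (adjusted p = 0.00223 and 0.00299).

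Markers of other cells moved with the subsets and with libraries 0. None of the 12 monocyte markers was at 0 in any library. The list mixes markers of all monocytes, of cMo and of pMo. In pMo against cMo 8 of the 12 were called higher and 3 lower, beside 17.2% and 15.9% of all genes. Log2 changes of the 12 ranged from -4.48 to 10.6. The 12 markers summed to 19823, 19953 and 19021 CPM in pMo libraries 0, 1 and 2. In intMo they summed to 13561, 13803 and 13533.5 CPM, and in cMo to 11941, 20061 and 24606 CPM. The lowest sum was thus in cMo library 0. Lyz2, lysozyme, had 3684, 6368 and 5962 CPM in pMo libraries 0, 1 and 2. It had 2273, 5871 and 4627 CPM in intMo and 7506, 13371 and 17724 CPM in cMo. Of 16 granulocyte and progenitor markers 10 fell in pMo against cMo and 7 in intMo against cMo, beside 15.9% and 10.4% of all genes. Without libraries 0, 10 fell and 4 rose in pMo against cMo, beside 18% and 19.7% of all genes. In intMo against cMo 9 then fell and 5 rose, beside 11.9% and 15.8% of all genes. The summed level of these markers was 418 to 1206 CPM in pMo, 384 to 1737 CPM in intMo and 1804 to 8576 CPM in cMo. The lowest value of pMo and of intMo and the highest of cMo were in library 0. Ngp, a neutrophil granule protein and the most counted of them, had 159, 551 and 579.9 CPM in pMo libraries 0, 1 and 2. It had 128, 636 and 646 CPM in intMo and 1849.5, 174 and 202 CPM in cMo. Ngp was thus highest in cMo among libraries 0 and lowest in cMo among libraries 1 and 2. Stromal markers ran the other way, with 12 of 14 tested called higher in pMo against cMo, beside 17.2% of all genes. In intMo against cMo 12 were called higher, beside 14% of all genes. The stromal markers summed to 281 to 573 CPM in pMo, 246 to 855 CPM in intMo and 10.9 to 26.9 CPM in cMo. Library 0 was again the highest of each subset. Cxcl12, a stromal chemokine, had 86.03, 87.6 and 63.6 CPM in pMo libraries 0, 1 and 2, against 138, 70.2 and 72.99 CPM in intMo and 3.63, 2.602 and 2.196 CPM in cMo. Of the 16 stromal markers Dcn, decorin, was at 0 in all 9 libraries and Lum, lumican, in all but pMo 0 and intMo 0. Of the granulocyte and progenitor markers Gata2 was at 0 in pMo library 2 and intMo library 0. The part of these cells in the levels of the mitosis genes was not tested.

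**Figure D5:**
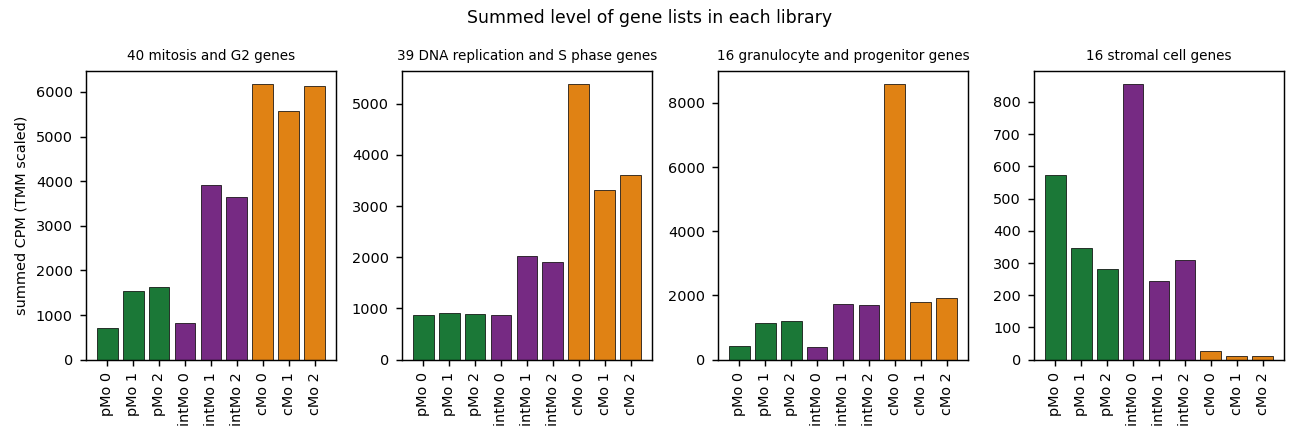
Summed CPM of 4 gene lists in each library, with pMo, intMo and cMo from left to right and an axis from 0 in each panel. Mitosis and granulocyte and progenitor genes are both low in pMo 0 and intMo 0, at 716 and 823 CPM and at 418 and 384 CPM, stromal genes are highest in intMo 0 at 855 CPM, and S phase genes are alike in the 3 pMo libraries.

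Lymphoid and erythroid markers were scarce. Lymphoid markers summed to 23.4 to 43.7 CPM in pMo, 36.6 to 57.7 CPM in intMo and 19.6 to 25.1 CPM in cMo, with 2 to 4 of 10 at 0 in a library. Cd79b, a B cell receptor chain, was the most counted of them at 33.8, 19.2 and 19.5 CPM in pMo libraries 0, 1 and 2, against 42.9, 22.6 and 22.5 CPM in intMo and 19.97, 15.4 and 18.1 CPM in cMo. Of the erythroid list only Epor, the erythropoietin receptor, was tested among 8 markers, and the list summed to at most 3.59 CPM in any library. Of 9 mitochondrially encoded genes 1 fell in pMo against cMo and 1 in intMo against cMo, beside 15.9% and 10.4% of all genes. The most counted, mt-Co1, a respiratory subunit, had 7162, 8744 and 8490.03 CPM in pMo libraries 0, 1 and 2, against 9019, 9065 and 7983 CPM in intMo and 8858, 8659 and 12118 CPM in cMo, and its subsets overlapped. Summed over the 9 genes, the level was 15636, 23188 and 22556 CPM in pMo libraries 0, 1 and 2, against 21472, 22231 and 21257 CPM in intMo and 21439, 23519 and 32299 CPM in cMo. The lowest sum was thus in pMo library 0, where the mitosis genes were also low, and that of intMo library 0 lay between those of intMo 1 and 2. The part of this in the levels of the mitosis genes was not tested.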

How the data were processed

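Estimated counts of each gene in 9 libraries were deposited, made with kallisto 0.46.1 and mm10, per the submitters' processing notes. RNAzol served for extraction and a stranded mRNA kit for the libraries, per the labels' protocols. Not given in the sources used here are the transcript annotation, the strand setting and any filter. Of 46517 IDs, 46005 matched a GENCODE M21 symbol with the version left aside, and coordinates are GRCm38, counted from 1.

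Counts were rounded, genes kept with filterByExpr by subset, and all 9 libraries fitted by subset in edgeR 4.0.16 (TMM, robust quasi-likelihood F test, R 4.3.3). Adjusted p is Benjamini-Hochberg over all genes tested, called under 0.05, and the SE is the log2 fold change divided by the root of F. DESeq2 1.42.0 was an alternative. The steps were tested on simulated data in which each gene varied separately. That test does not cover a shift shared by many genes of a library, such as that of the members in libraries 0. Deviations of same-numbered libraries from their subset means correlated above 0.1 for all 3 numbers between pMo and intMo. Between pMo and cMo the correlations were 0.193, -0.04 and 0.333 for numbers 0, 1 and 2. Between intMo and cMo the lowest was -0.26. The numbers were therefore taken to pair only pMo and intMo, from the data and not the labels. The 3 deviations within a subset cancel out, so the 3 correlations are not separate signs of pairing. Libraries without molecular identifiers count reads and not molecules.

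The members, gene lists and tests were chosen with earlier results of these data known. Members given in every library are the 2 most counted and the most changed in each role, beside Pttg1, chosen after its values were seen. Other lists contribute their 2 most changed genes without overlap, and marker lists their most counted gene. The block fit of pMo and intMo was added after the data were seen.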

Additional observations from a re-analysis of the deposited data

How the results depend on the processing

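RLE and upper quartile scaling and a filter at 1 CPM changed no member's call in the 3 pairwise comparisons. With no filter, 24 members were called lower in pMo against cMo and 6 for any difference among the 3 subsets, where 29 were in the fit of all 9 libraries. DESeq2 called 10 members lower in intMo against cMo, and 647 genes lower and 770 higher in pMo against intMo, where edgeR called 238 and 463. Fitting only the subsets compared gave 782 genes lower in intMo against cMo, where 1467 were, and 1 member higher in pMo against cMo. The replicate block over all 9 libraries gave 2 members lower in intMo against cMo, 1 higher in pMo against cMo and 0 in pMo against intMo. The replicate block over pMo and intMo alone gave 19 members, 1353 genes lower and 1236 higher in pMo against intMo.

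Leaving out 1 library, or 1 number in all subsets, gave these ranges of calls. Members called lower numbered 0 to 39 in pMo against cMo, 0 to 33 in intMo against cMo and 0 to 39 in pMo against intMo. Members called higher numbered 0 to 1 in pMo against cMo and 0 to 1 in intMo against cMo. Members called for any difference numbered 0 to 40, among 914 to 5399 genes. Over all genes, 430 to 2552 were lower and 886 to 2797 higher in pMo against cMo, 160 to 1694 lower and 590 to 2242 higher in intMo against cMo, and 0 to 1371 lower and 3 to 1053 higher in pMo against intMo. The highest counts of members came without the 3 libraries numbered 0.  Median changes of the members stayed negative in each comparison, from -2.57 to -1.90 in pMo against cMo, -1.58 to -0.59 in intMo against cMo and -1.61 to -0.80 in pMo against intMo. Pttg1 in pMo against intMo, not called, ranged from a log2 of -0.027 without intMo library 0, a reversed sign, to 0.43 without intMo library 1. The cause of these differences was not tested.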
